A study of Mus musculus with 9 samples.

Results

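The major urinary proteins of the mouse are described here through the genes *Mup3*, *Mup4*, *Mup5*, *Mup20* and *Mup21*. Members were the transcript clusters whose symbol in the platform annotation was 1 of these 5 names. The rule found 4 clusters of 22206, 1 each for *Mup20*, *Mup3*, *Mup21* and *Mup5*. *Mup4* is not analysed here, as no cluster carried that symbol in the annotation used.

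Major urinary proteins are small secreted lipocalins, barrel-shaped carriers that hold volatile molecules in a central pocket. The liver of the adult male mouse makes them in large amounts, and they pass through the blood into urine, where they bind and slowly release pheromones. Their genes form a cluster of close copies, whose transcription in liver is known to respond to pulsatile growth hormone acting through STAT5B, and to androgen, thyroid hormone and glucocorticoid. *Mup20* encodes darcin, the male urinary protein that draws females to a scent mark. *Mup3* and *Mup21* belong with *Mup20* to the more divergent members at the edge of the cluster, and *Mup5* is best known from lacrimal and salivary glands.

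RNA of whole liver was hybridised to Clariom S mouse arrays, 9 in all and 3 per group. The groups were leptin-deficient C57BL/6JHamSlc-ob/ob mice given an extract of *Vigna umbellata* (rice bean) at 100 mg/kg, C57BL/6JHamSlc-ob/ob mice given vehicle, and C57BL/6JHamSlc-+/+ mice given vehicle, called wild type below. All were male, were 6 weeks old when taken into the study, ate standard chow and were dosed for 42 days, the extract by oral gavage. The ob/ob mouse makes no working leptin, the fat-cell hormone that curbs appetite, and grows obese with a fatty liver, so the genotype comparison covers lack of leptin and obesity at once. Each array was taken as 1 mouse, as the design text gives 3 per group, and p-values measure the spread between these arrays.

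The values are on a log2 scale with a ceiling. They ended at 19.78 to 19.93, the array maximum, which 20 to 36 clusters shared on each array. Ob/ob vehicle 3 and wild-type vehicle 3 stood apart, correlating with their own groups at 0.948 to 0.955, against 0.980 or more among the other arrays of a group. Their values were also less spread, with interquartile ranges of 3.26 and 3.01 log2, while the other 7 arrays had 3.36 to 3.85. Calls of the *Mup* clusters are given with and without both, as are those of gene lists in ob/ob vehicle against wild type. All 8 hepatocyte markers lay above the 97.5th percentile of the 1091 olfactory receptor clusters, genes that liver does not use, on every array, and 0 of 7 T and NK cell markers did.

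The cluster of *Mup* genes holds 22 protein-coding genes on chromosome 4 in the RefSeq table for GRCm38.p6, used here for names and order only. *Mup4* lies first in that order, and *Mup5*, *Mup20*, *Mup3* and *Mup21* lie 19th, 20th, 21st and 22nd, so the 4 measured members are neighbours at one end. RefSeq promoter windows, 250 bases before to 50 after the annotated start, were given for 14 of the 22 genes, *Mup3* and *Mup21* among them. These 2 are shown because they lie next to each other and had the highest Pearson correlation of any member pair over the 9 arrays (0.986); by Spearman's rho *Mup3* and *Mup5* were closer (0.996, against 0.983). Both are on the minus strand of GRCm38.p6, at chr4:62087268-62087567 for *Mup3* and chr4:62150792-62151091 for *Mup21*, and capitals mark the letters TATATAA, which resemble a core promoter element and were searched for after the windows had been read.
Mup3: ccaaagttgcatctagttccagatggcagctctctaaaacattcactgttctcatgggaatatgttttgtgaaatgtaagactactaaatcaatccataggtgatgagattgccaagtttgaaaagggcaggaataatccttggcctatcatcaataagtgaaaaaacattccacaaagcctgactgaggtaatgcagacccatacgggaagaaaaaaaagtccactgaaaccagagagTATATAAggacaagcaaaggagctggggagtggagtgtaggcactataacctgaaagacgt
Mup21: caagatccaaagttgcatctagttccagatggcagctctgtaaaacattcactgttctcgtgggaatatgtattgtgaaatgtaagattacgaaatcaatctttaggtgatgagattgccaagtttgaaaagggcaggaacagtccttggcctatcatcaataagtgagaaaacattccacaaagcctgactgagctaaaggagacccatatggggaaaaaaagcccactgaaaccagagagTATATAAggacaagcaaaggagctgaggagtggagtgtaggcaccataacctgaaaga

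The 2 windows shared 277 of 306 aligned positions (90.5%), and the TATATAA run began 11 bases before the annotated start of *Mup3* and 8 before that of *Mup21*. On either strand it was present in 13 of 14 *Mup* windows, against 3.24% of 32851 windows of the same length. These letters were chosen after the *Mup* windows had been read, so this contrast is no independent test. Pairs of the 14 windows were also alike to differing degrees, at 36.6% to 98.0% of aligned positions, so they are not separate cases. TTCNNNGAA, the letters read by STAT5, was in 0 of the 14 *Mup* windows and 8.30% of all windows. The STAT6 form, which has 1 more base in its spacer, was in 5 of 14 and 6.95% of all, but not in those of *Mup3* or *Mup21*. ATCGAT, read by CUX2, and the palindromic HNF1 motif were in 0 of 14 (0.925% and 0.00913% of all). TATAAA was in 2 of 14, those of *Mup4* and *Mup6*, overlapping TATATAA there (13.6% of all). These are letter matches in short windows, and no binding was measured.

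Vehicle-treated ob/ob livers were first set against those of wild type, which addresses the genotype. *Mup20*, *Mup3* and *Mup21* fell in ob/ob vehicle livers, with differences between −3.26 and −2.54 log2, and *Mup5* at −1.66 did not pass the threshold. So 3 of 4 members were called lower (limma, p under 0.05 after Benjamini-Hochberg adjustment across the whole array), against 0.68% of all clusters called lower. In all 4 the 3 ob/ob arrays lay below the 3 wild-type arrays, which held in that direction for 9.78% of all clusters. The median difference of the 4 was −2.79 log2, against −0.06 over all 22206 clusters. The members were chosen with earlier results of these data known, so their counts and medians, here and below, are no independent test. The 4 clusters also varied together over the 9 arrays (Pearson's r of 0.813 to 0.986 between pairs). In bulk liver, fewer cells that express a gene and less RNA per cell cannot be told apart.

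*Mup20*, the darcin gene, stood at 15.63, 16.53 and 18.04 log2 in ob/ob vehicle arrays 1 to 3, against 19.71, 19.84 and 19.78 in wild type. Wild-type arrays 2 and 3 were at the array maximum, so a higher level could not have been read there. The groups did not overlap, and ob/ob vehicle 3 came closest to wild type. The difference was −3.04 log2 (SE 0.50, limma adjusted p = 0.0129), or 8.24-fold lower on this scale. The ceiling also limits the wild-type spread (SD 0.07, against 1.22 in ob/ob vehicle), which enters this SE and p.

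*Mup3* stood at 16.24, 16.93 and 18.59 log2 in ob/ob vehicle arrays 1 to 3, against 19.93, 19.84 and 19.62 in wild type. Here wild-type arrays 1 and 2 were at the array maximum and the third was 0.16 below it. The difference was −2.54 log2 (SE 0.54, limma adjusted p = 0.0362), with a wild-type spread (SD 0.16, against 1.21 in ob/ob vehicle) again limited by the ceiling.

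*Mup21* was below the maximum on all 9 arrays, by 0.88, 0.39 and 1.00 log2 on wild-type arrays 1 to 3. It stood at 15.02, 15.28 and 17.21 log2 in ob/ob vehicle arrays 1 to 3, against 19.05, 19.45 and 18.78 in wild type. The groups did not overlap, and the difference was −3.26 log2 (SE 0.57, limma adjusted p = 0.0173).

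*Mup5*, the gland-associated member, was above the olfactory receptor range on every array. It stood at 5.90, 7.45 and 8.12 log2 in ob/ob vehicle arrays 1 to 3, against 9.05, 8.84 and 8.57 in wild type. The difference of −1.66 log2 (SE 0.46, 95% interval −2.69 to −0.64) had an adjusted p of 0.0918 in limma. Of 8 measured markers of lacrimal, salivary and nasal gland, 1 to 2 were above the olfactory receptor range on any array and 0 were called in this comparison.

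**Figure D1:**
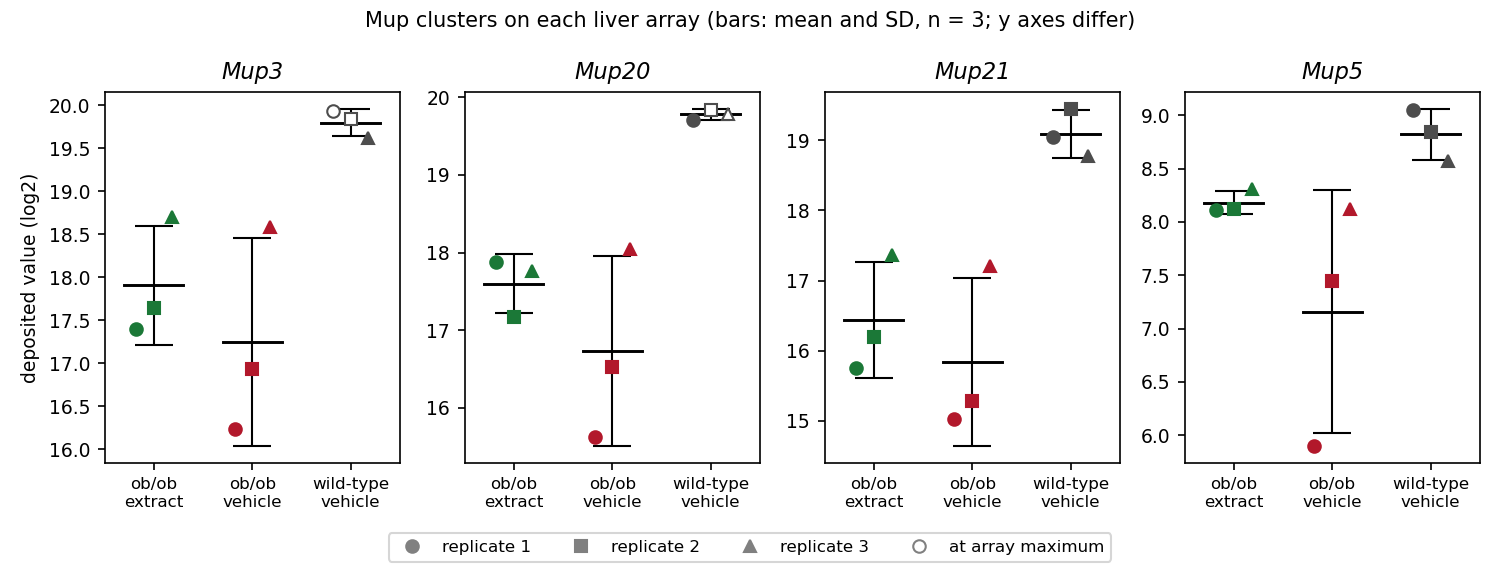
Deposited log2 values of the 4 Mup clusters on each array, with symbols for replicates and bars for mean and SD (n = 3), and y axes that differ between panels. Open symbols mark arrays where the cluster was at the array maximum, 2 of 3 wild-type arrays for Mup3 and for Mup20; every wild-type array lies above every ob/ob array, and ob/ob vehicle 3 is the highest of its group in each panel.

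Ob/ob vehicle arrays shared an order over the members. Array 1 was lowest and array 3 highest for each of the 4, and their range was 2.19 to 2.41 log2, against 0.48 for *Mup5* and 0.67 for *Mup21* among wild-type arrays. The wild-type ranges of *Mup20* and *Mup3* were limited by the array maximum. Array 3 is also 1 of the arrays that stood apart. With both such arrays left out, the limma differences were −3.69 for *Mup20* (adjusted p = 0.000240), −3.30 for *Mup3* (0.00101), −4.10 for *Mup21* (0.000446) and −2.27 for *Mup5* (0.00776). All 4 were called lower in that fit, as were 478 of all 22206 clusters, against 151 with no array left out.

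Other single arrays ended calls. When ob/ob vehicle 2 was dropped, or wild-type vehicle 2, none of the 4 was called (limma adjusted p = 0.0576 and 0.0658 for *Mup20*, 0.0731 and 0.0834 for *Mup21*), and without ob/ob vehicle 1 *Mup21* was not (0.0726). *Mup3* was called only when ob/ob vehicle 3 or extract 3 was the array left out (adjusted p = 0.00144 and 0.0444), and had 0.0540 to 0.126 without any other array. *Mup5* was called without ob/ob vehicle 3 (0.0105). All these differences stayed negative.

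Whether the extract altered these genes was addressed within the ob/ob genotype. No member passed the threshold. Each of the 4 had a higher mean with extract, by 0.60 to 1.02 log2, as did 48.4% of all clusters, and all 4 stayed between both vehicle groups in mean. limma called 0 of 4 members and 0% of clusters, while 1433 clusters (6.45%) had an unadjusted p under 0.05 with a fold over 1.1 and 0 members were among them. No member had groups without overlap, which held for 13.6% of clusters.

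*Mup20* stood at 17.88, 17.17 and 17.76 log2 in extract arrays 1 to 3, against 15.63, 16.53 and 18.04 in ob/ob vehicle. All 3 extract values lay between ob/ob vehicle 2 and 3, and the difference was 0.87 log2 (95% interval −0.24 to 1.98, limma adjusted p = 0.823). *Mup5* stood at 8.11, 8.12 and 8.31 log2 with extract, against 5.90, 7.45 and 8.12 with vehicle, a difference of 1.02 (95% interval 0.00 to 2.05, adjusted p = 0.767). The extract arrays of *Mup5* lay within 0.20 log2 of each other and overlapped with ob/ob vehicle 3 alone.

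*Mup3* stood at 17.40, 17.64 and 18.70 log2 with extract, against 16.24, 16.93 and 18.59 with vehicle, and its difference was 0.66 (95% interval −0.54 to 1.86, limma adjusted p = 0.857). *Mup21* stood at 15.76, 16.19 and 17.36 log2 with extract, against 15.02, 15.28 and 17.21 with vehicle, and its difference was 0.60 (95% interval −0.66 to 1.86, adjusted p = 0.876). In both genes the highest array of each group was replicate 3, and these 2 arrays had nearly the same values. Both intervals span 0 and reach 1.86 log2 at their upper end.

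**Figure D2:**
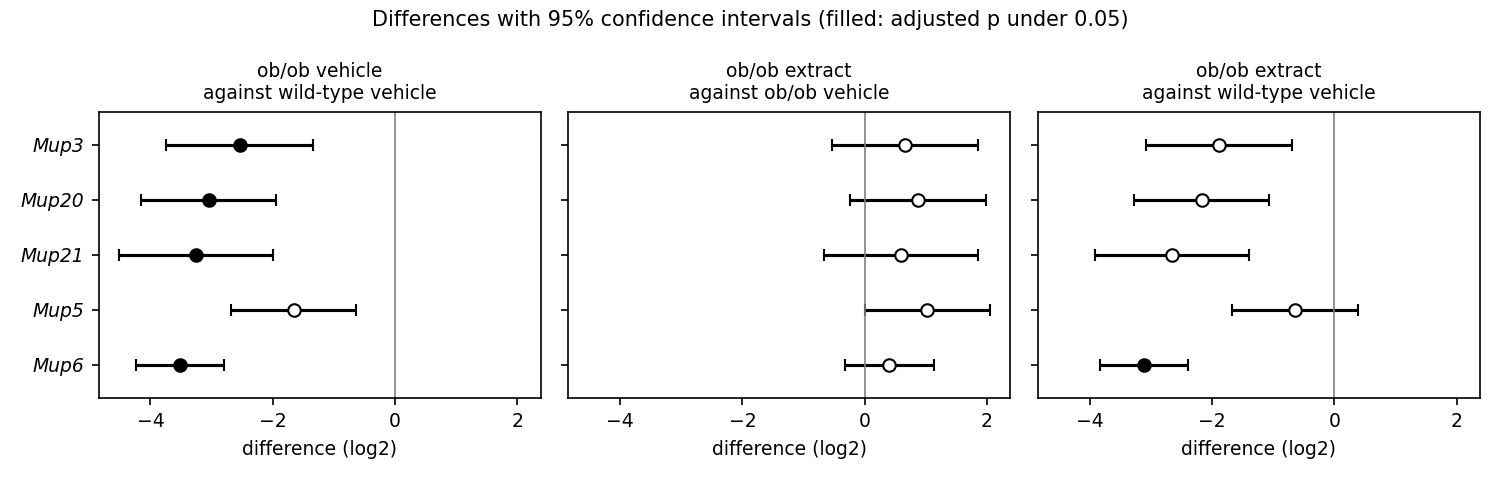
Log2 differences of the 4 Mup clusters and of Mup6 in the 3 comparisons, with 95% confidence intervals from limma, filled where the adjusted p was under 0.05. Of the 4 members 3 are filled, as is Mup6, in ob/ob vehicle against wild type, none in extract against ob/ob vehicle, and Mup6 alone in extract against wild type.

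Ob/ob vehicle 3 bears on this comparison too. Without it the differences were larger, and with both arrays that stood apart left out they were 1.52 for *Mup20*, 1.50 for *Mup5*, 1.33 for *Mup3* and 1.29 for *Mup21*. In that fit limma called *Mup20* higher with extract (adjusted p = 0.0426), while *Mup5* (0.0769), *Mup3* (0.110) and *Mup21* (0.147) were not called. Over all clusters it called 48 higher and 312 lower. The fit rests on 2 ob/ob vehicle and 2 wild-type arrays beside the 3 extract arrays. Without ob/ob vehicle 3 alone *Mup20* also differed by 1.52 but was not called (limma adjusted p = 0.0996). The wild-type array is in neither group compared and acts through the shared spread. Leaving out ob/ob vehicle 1 instead took the differences to 0.32 for *Mup20* and 0.40 for *Mup5*, and the lowest of any single omission were 0.15 for *Mup3* and 0.14 for *Mup21*.

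**Figure D3:**
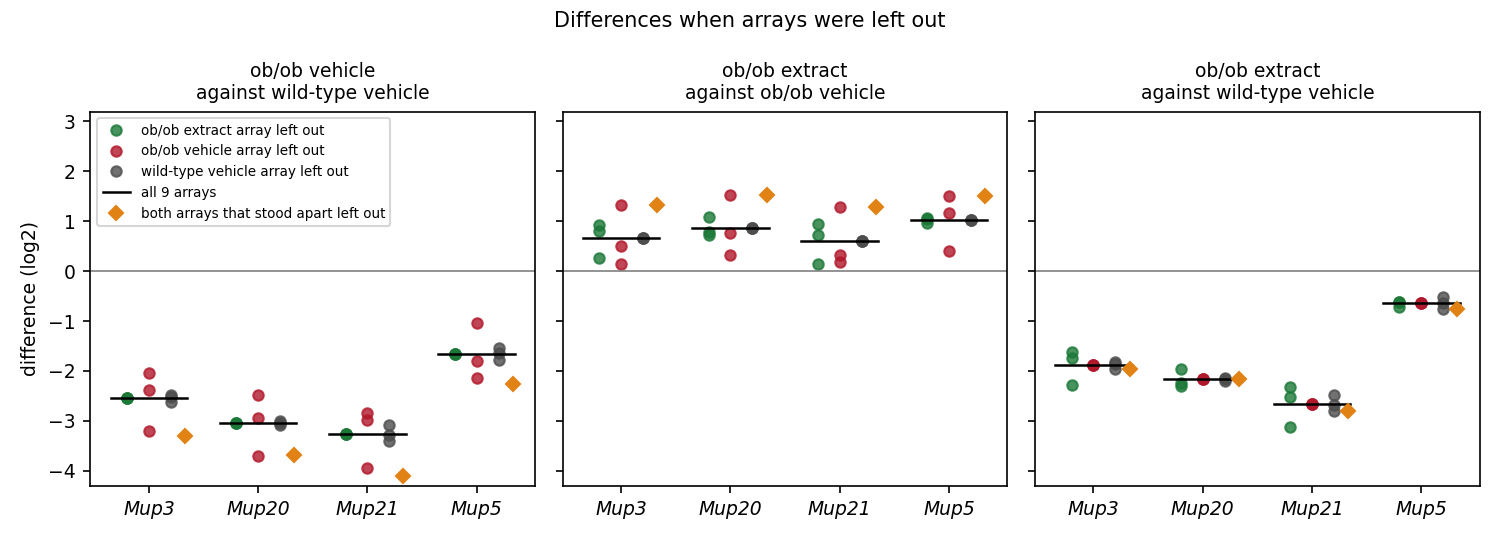
Log2 differences of the 4 Mup clusters when 1 array was left out in turn, coloured by the group of that array, with the value from all 9 arrays as a line and the value without both arrays that stood apart as a diamond. All points keep the sign of their line, and the red points, ob/ob vehicle arrays, spread the most in both comparisons that use that group.

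The third comparison set extract-treated ob/ob liver against wild type. It shares its wild-type arrays with the first comparison and its extract arrays with the second. Differences were −2.17 log2 for *Mup20* (SE 0.50, limma adjusted p = 0.0742), −1.88 for *Mup3* (SE 0.54, 0.148), −2.66 for *Mup21* (SE 0.57, 0.0554) and −0.64 for *Mup5* (SE 0.46, 0.567). So 0 of 4 were called, against 0.315% of clusters called lower, and 3 of 4 met the design text's own criterion (unadjusted p under 0.05 and a fold over 1.1), which 5.82% of clusters met in that direction. In all 4 the extract arrays lay below the wild-type arrays, as in 10.6% of clusters.

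These calls depended on the arrays in the fit. limma called *Mup20*, *Mup3* and *Mup21* when both arrays that stood apart were left out (adjusted p = 0.00432, 0.0176 and 0.00355) or ob/ob vehicle 3 alone (0.00383, 0.0193 and 0.00540), an array in neither group that acts through the shared spread. Over all clusters 198 and 141 were called lower in these fits, against 70 with all 9 arrays. Without ob/ob vehicle 1 *Mup20* was called (0.0349). In mean level the order for each member was ob/ob vehicle, extract, wild type from low to high. With all 9 arrays limma called no member between neighbours in that order, and for *Mup5* the interval of extract against wild type was −1.67 to 0.39.

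Of the other *Mup* symbols, 5 had a cluster. *Mup2*, *Mup19* and *Mup22* had identical values on all 9 arrays, each at the array maximum, and *Mup9* was at the maximum on 7 and within 0.04 log2 of it on ob/ob vehicle arrays 1 and 2. A difference between groups could not be read from these 4. *Mup6*, the neighbour of *Mup4*, averaged 9.58 ± 0.53 log2 in the ob/ob vehicle group, against 13.09 ± 0.46 for wild type (SD, n = 3 each), a difference of −3.51 (SE 0.33, limma adjusted p = 0.000652). With extract it was at 9.98 ± 0.14, still lower than wild type (−3.11, adjusted p = 0.00173) and 0.40 above ob/ob vehicle (95% interval −0.32 to 1.13). Without both arrays that stood apart these differences were −3.94, −3.25 and 0.70, and the same 2 were called. No member had values identical to those of another cluster over the 9 arrays, but probe sequences were not used here and signal shared with close copies was not tested.

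Lists of growth hormone signalling genes, hormone receptors and regulators of sex-dependent liver expression were read next. A listed gene need not itself act on *Mup* transcription. In ob/ob vehicle against wild type 2.28% of all clusters were called higher and 0.68% lower. Of 14 growth hormone and STAT5 signalling genes 1 fell in ob/ob vehicle and 0 rose (median −0.20 log2, against −0.06 over all clusters). It was *Igfbp2*, a binding protein of insulin-like growth factors, at −7.47 (limma adjusted p = 0.000106). *Igfals*, which stabilises circulating IGF1, differed by −2.11 (adjusted p = 0.142) and *Socs2*, a feedback inhibitor induced by growth hormone, by −1.21 (0.161). Of 8 measured hormone receptors 0 were called (median −0.08), with *Lepr*, the leptin receptor, at −0.74 (0.316), *Esr1*, an estrogen receptor, at 0.56 (0.351) and *Thra*, a thyroid hormone receptor, at −0.30 (0.659).

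Of 15 measured regulators of sex-dependent liver expression 1 rose and 1 fell (median −0.42). *Onecut1*, encoding the hepatocyte factor HNF6, averaged 7.66 ± 0.74 log2 in the ob/ob vehicle group, against 11.16 ± 1.23 for wild type (SD, n = 3; −3.50, limma adjusted p = 0.0246). *Trim24*, a nuclear receptor cofactor, rose by 2.28 (adjusted p = 0.0391), and *Hhex*, a hepatocyte homeobox factor, differed by −1.27 (0.122). *Zhx2*, a factor that raises *Mup* expression in adult mouse liver, was not among the called genes, at 0.44 (0.686). Without both arrays that stood apart limma called 4 regulators higher, *Bcl6*, *Onecut2*, *Zhx2* and *Trim24*, and *Onecut1* lower, in the growth hormone list again *Igfbp2* alone, and 0 hormone receptors. That fit called more clusters over the whole array, 1267 higher and 478 lower, against 507 and 151 with no array left out.

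With extract against ob/ob vehicle 0 genes of these lists were called by limma. Those with the smallest p in their lists included *Cebpb*, a liver-enriched leucine zipper factor, at 1.62 (adjusted p = 0.593), *Zhx2* at −1.15 (0.765) and *Igfbp1* at 2.76 (0.767). Without both arrays that stood apart *Igfbp1* rose with extract and 3 regulators fell, *Foxa2*, *Onecut2* and *Zhx2*, where 48 of all clusters were called higher and 312 lower. Against wild type, extract livers had *Igfbp2* lower (−7.38, 0.000147) and *Trim24* higher (3.06, 0.0153), and *Onecut1* at −2.64 (0.105) was not called. There *Onecut1* and *Cebpa* were also called lower when both arrays were left out.

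The members belong to the genes known to be higher in male than in female mouse liver. Of 21 other such genes 14 fell in ob/ob vehicle and 0 rose (median −3.00), against 0.68% of all clusters called lower. Of 26 measured genes higher in female liver 16 rose and 0 fell (median 2.56), against 2.28% of all clusters called higher. Both lists were chosen with earlier results of these data known, so their counts and medians are no independent test. *Mup21* differed by −3.26 in the same comparison, and lay 0.39 to 1.00 log2 below the array maximum in wild type. Whether the ceiling compressed it was not tested. The differences of *Mup20* and *Mup3* have no exact place beside the male list median because of the ceiling. With extract against ob/ob vehicle 0 genes of either list were called (medians 0.06 and 0.23). With extract against wild type 13 of the male list fell and 16 of the female list rose (medians −3.26 and 3.02). Of all clusters 0.315% were called lower there and 0.977% higher. Without both arrays that stood apart 16 of the male list fell in ob/ob vehicle (median −3.11, with *Mup21* at −4.10), 17 of the female list rose and 1 fell, and 0 of either were called between extract and ob/ob vehicle.

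Among 21 other lipocalins, the wider family, 3 rose and 1 fell in ob/ob vehicle (median −0.14), against 2.28% and 0.68% of all clusters. The orosomucoids *Orm3* (5.66, limma adjusted p = 0.000822) and *Orm2* (4.70, 0.00397), acute phase carriers, and *Lcn2*, an iron-siderophore carrier (7.46, 0.0199), rose, and *Apom*, the sphingosine-1-phosphate carrier of lipoproteins, fell, at 5.47 ± 0.79 log2 in ob/ob vehicle livers, against 9.41 ± 0.64 for wild type (SD, n = 3; −3.94, adjusted p = 0.00397). In extract livers against wild type *Orm3* (5.0, 0.00227) and *Orm2* (4.17, 0.00916) rose and *Apom* (−2.86, 0.0254) fell, and against ob/ob vehicle 0 lipocalins were called. Without both arrays that stood apart the same 4 were called in ob/ob vehicle against wild type, and *Lcn2* also rose in extract against wild type. Of 22 other secreted hepatocyte proteins 1 fell, the esterase *Ces1c* (−1.33, 0.0449), and 0 rose (median −0.05), with 2 at the array maximum on all 9 arrays. With both arrays that stood apart left out 2 fell, *Fgb*, a fibrinogen chain, and *Ces1c*. The summed level of the 8 hepatocyte markers, as their mean, ran from 17.30 to 17.86 log2 with extract, from 17.14 to 17.91 on ob/ob vehicle arrays and from 17.91 to 18.20 on those of wild type. In ob/ob vehicle against wild type 0 of 8 were called (median −0.30), and 1 marker was at the array maximum throughout. Of 8 stellate cell markers 1 rose, *Rgs5* (1.93, 0.0427), and 0 of 7 Kupffer cell and 0 of 8 sinusoidal endothelial markers were called. When both arrays that stood apart were left out 1 endothelial marker, *Lyve1*, and 1 stellate marker, *Rgs5*, rose, and 0 markers of hepatocytes (median −0.05), Kupffer cells, T and NK cells, cholangiocytes or glands were called. Kupffer markers averaged 5.66 to 6.78 log2 with extract, 6.97 to 7.12 with ob/ob vehicle and 6.25 to 6.87 in wild type. The part of cell makeup in the *Mup* differences was not tested.

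**Figure D4:**
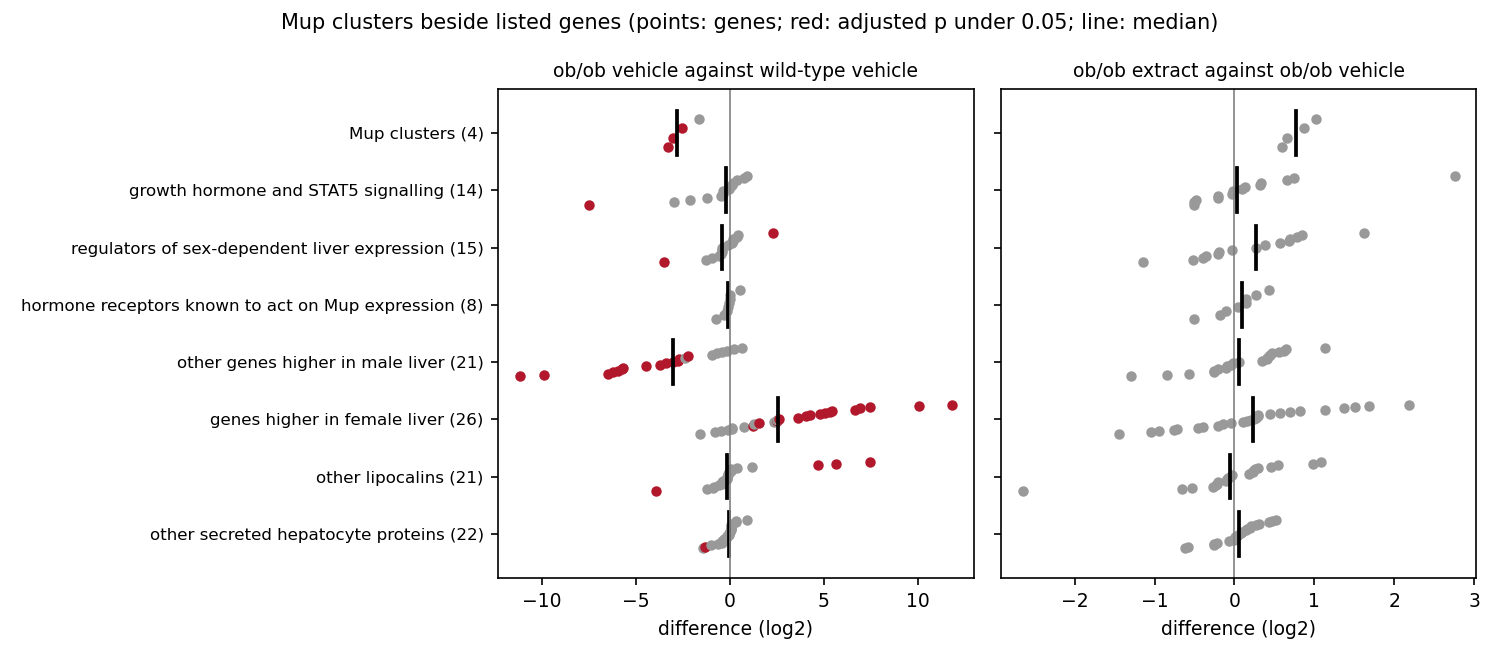
Log2 differences of the 4 Mup clusters and of the measured genes of 7 lists (number measured in brackets), on the left for ob/ob vehicle against wild type and on the right for extract against ob/ob vehicle, with x axes that differ; red points had an adjusted p under 0.05 and lines are medians. On the left the Mup median is −2.79, with 2 of 4 members limited by the array maximum in wild type. That of the male list is −3.00, and the members and lists were chosen with earlier results of these data known. On the right no point is red.

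The likeness of each member to all other named genes was described by Pearson's r over the 9 arrays, which includes the differences between groups. *Mup3* and *Mup21* were each other's closest match (r = 0.986). *Mup20* was closest to *Rab11fip4* (0.981), *Hsp90b1* (0.962), *Samd3* (0.959), *Mup3* (0.959) and *Arhgef25* (0.956). *Hsp90b1*, an endoplasmic reticulum chaperone, was also among the 5 closest to *Mup3* (0.965, with *Hagh* at 0.973, *Rab11fip4* at 0.963 and *Fgb* at 0.961) and to *Mup21* (0.964, with *Adh6-ps1* at 0.975, *C2* at 0.969 and *Nell2* at 0.963). *Mup5* was closest to *Vmn1r219* (0.958), a vomeronasal receptor gene, and then to *Rpl21* (0.953), *Csrp2* (0.952), *Cd163l1* (0.946) and *Ahsa2* (0.945). With 9 arrays in 3 groups, a match this close was thus also found with a pheromone receptor gene that liver is not known to use.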

How the data were processed

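Liver RNA of 9 male mice, 3 per group, was measured on Clariom S arrays. For each transcript cluster the authors deposited a log2 value, from SST-RMA in Transcriptome Analysis Console (version 4.0.2) per the series' design text and rounded to 2 decimals. SST-RMA counters compression of fold changes, so sizes depend on it, and the array maximum hides changes at the top. Detection calls were not used, and the genome build was not given in the sources used here.

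Symbols came from GEO's platform annotation, which named 19572 of 22206 clusters. The Entrez identifiers of the 4 member clusters all matched RefSeq (GRCm38.p6). Promoters are RefSeq's, aligned with Biopython 1.88.

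Group means of the 9 arrays were fitted together with limma 3.58.1 in R 4.3.3 (lmFit and eBayes with defaults, 6 residual and 4.45 prior degrees of freedom), close to the design text's analysis of variance with empirical Bayes correction, and calls used p under 0.05 after Benjamini-Hochberg adjustment across the whole array. The number of mice limits the precision.

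Members and lists were chosen with earlier results of these data known. The text names all members, up to 3 genes of each list by smallest p and the 5 genes closest to each member, and *Zhx2* in the first comparison, *Lcn2* and *Mup6* outside that rule, after their values were seen. Genes named as called without both arrays that stood apart were also chosen so, as was that setting for the lists and *Mup6*. The sex-biased lists are given by counts.

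The groups share replicate numbers, which the labels do not explain. Deviations from group means of same-numbered arrays correlated at 0.256, 0.262 and 0.450 between ob/ob vehicle and wild type, which meets the rule set for pairing (all over 0.1), and at −0.208 to 0.0157 in the comparisons with extract, which does not. Replicate 3 of both vehicle groups are the arrays that stood apart, whose part in these correlations was not tested. Alternatives covered normalization, dim clusters, arrays and the spread model.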

Additional observations from a re-analysis of the deposited data

How the results depend on the processing

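No difference of the 4 *Mup* clusters changed sign under any of 21 alternatives, but several of these cannot move a difference. Among them are leaving out dim clusters, the replicate block, another spread model, another threshold, and omission of an array of the third group. In ob/ob vehicle against wild type 3 members were called, 1 with only the 2 groups compared (*Mup20* at −3.04 with adjusted p = 0.0548 and *Mup3* at −2.54 with 0.0906 were lost), and 0 to 4 with 1 array left out. The interquartile range as a covariate ended the call of *Mup3* (−1.97, 0.0857). *Mup5* was called with array weights (−1.86, 0.0162), by the design text's criterion (−1.66) and without both arrays that stood apart (−2.27). With 1 array left out the differences ran from −3.70 to −2.49 (*Mup20*), −3.21 to −2.04 (*Mup3*), −3.94 to −2.85 (*Mup21*) and −2.14 to −1.03 (*Mup5*). The replicate block gave −3.04, −2.54, −3.26 and −1.66 and changed no call in this comparison, and 579 clusters in place of 658.

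In extract against ob/ob vehicle 0 members were called, 0 with any 1 array left out and 1 without both arrays that stood apart (*Mup20*, 1.52). With 1 array left out the differences ran from 0.32 to 1.52 (*Mup20*), 0.15 to 1.33 (*Mup3*), 0.14 to 1.29 (*Mup21*) and 0.40 to 1.50 (*Mup5*). In extract against wild type 0 members were called, 1 once the dimmest 30% of clusters were dropped (*Mup21*, −2.66, adjusted p = 0.0444), 2 once the dimmest 50% were dropped (*Mup21* at −2.66, 0.0350, and *Mup20* at −2.17, 0.0480), where fewer clusters were tested, and 1 with the replicate block (*Mup21*, −2.66, 0.0341). *Mup20*, *Mup3* and *Mup21* were all called, 3 members, with only the 2 groups compared (−2.17, −1.88 and −2.66), with array weights (−2.27, −1.93 and −2.76), by the design text's criterion (−2.17, −1.88 and −2.66) and without both arrays that stood apart (−2.17, −1.97 and −2.81). With 1 array left out 0 to 3 were called, and the differences ran from −2.31 to −1.96 (*Mup20*), −2.28 to −1.63 (*Mup3*), −3.12 to −2.32 (*Mup21*) and −0.76 to −0.52 (*Mup5*). Beyond fewer clusters or arrays, the cause was not tested.

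Over all clusters the calls were 658, 0 and 287 in the 3 comparisons in the order above. They were 2137, 106 and 796 with array weights, 3771, 1433 and 3115 by the design text's criterion, and 1745, 360 and 595 without both arrays that stood apart. With only the 2 groups compared 207 were called in the first, and 1 in the second with the interquartile range in the model. With 1 array left out the ranges were 147 to 1679, 0 to 51 and 77 to 598. Quantile normalization gave 290 higher and 256 lower in the first comparison, against 507 and 151, and 153 and 97 in the third, against 217 and 70. Subtracting array medians moved the median of all clusters in the first comparison from −0.06 to 0.06 and in the third from −0.05 to 0.09. The array maximum limits what *Mup20*, *Mup3* and the *Mup* clusters at the ceiling can show.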
